A study of Mus musculus with 8 samples.

Results

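The genes described here encode the Polycomb repressive complex 2 (PRC2), the histone methyltransferase that places the repressive mark H3K27me3 on histone H3, and its accessory subunits. The 10 members were listed by gene symbol: *Ezh1*, *Ezh2*, *Eed*, *Suz12*, *Jarid2*, *Aebp2*, *Mtf2*, *Phf1*, *Phf19* and *Epop*. Of these, 9 had a row among the 15039 genes of the expression table used here, and *Phf19* had none. The list was chosen by gene function with the Rnf146 minus eGFP differences of the same libraries known, so the values of its genes are given as a description and their p-values are no independent test.

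The data are 4 RNA-seq libraries of dissected prefrontal cortex (PFC) after Rnf146 overexpression and 4 after eGFP overexpression. The animals were male wild-type C57BL/6NCrljOri mice that received a bilateral AAV injection into the PFC at an age of 6 weeks, and the tissue was dissected 4 weeks later. The study states that the mice used for sequencing had been checked for Rnf146 overexpression and showed deficits in social behaviour. The Rnf146 virus carried mouse Rnf146 together with eGFP and the control virus eGFP alone, both under the human synapsin promoter, which is active in neurons. The libraries were made from whole dissected tissue, which holds both infected and uninfected cells. The labels do not say whether a library is 1 mouse, or what libraries with the same replicate number share. The comparison asks how overexpression of the ubiquitin ligase Rnf146 in PFC neurons changed transcription. The deposited values are on a log2 scale and had been centred within each same-numbered pair of libraries, so the eGFP and Rnf146 values of a pair mirror each other around the mean of the gene. Each gene therefore holds 4 independent pair differences, given throughout as Rnf146 minus eGFP on that log2 scale. The depth of the libraries is unknown.

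PRC2 keeps developmental genes silent in cells that should not use them. Its core consists of a catalytic subunit, either EZH1 or EZH2, with EED, which binds the finished histone mark, and SUZ12, which holds the complex together. Accessory subunits join this core in 2 alternative forms. One form carries JARID2 and AEBP2, and the other a Polycomb-like protein (PHF1, MTF2 or PHF19) together with EPOP or a related subunit. EZH2 is typical of dividing cells and EZH1 of cells that have stopped dividing, such as neurons.

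For a view of the sequence before the genes, the RefSeq promoter table (GRCm38.p6) held windows for 9 of the 10 members. *Epop* had no entry. The bases from 250 to 51 before the start site were examined, which leaves out the first transcribed bases. The windows of 3 members are shown, 5′ to 3′ on the strand of the gene, because they span the range of CpG density among the members and include *Aebp2*, the one member that was higher in every pair. CpG dinucleotides are in capitals.

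Suz12, chr11:79992856-79993055, plus strand: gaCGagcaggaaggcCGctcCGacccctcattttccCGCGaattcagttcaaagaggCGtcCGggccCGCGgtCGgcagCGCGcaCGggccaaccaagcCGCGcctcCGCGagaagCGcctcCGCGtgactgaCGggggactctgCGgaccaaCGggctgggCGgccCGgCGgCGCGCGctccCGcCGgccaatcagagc
Ezh1, chr11:101226514-101226713, minus strand: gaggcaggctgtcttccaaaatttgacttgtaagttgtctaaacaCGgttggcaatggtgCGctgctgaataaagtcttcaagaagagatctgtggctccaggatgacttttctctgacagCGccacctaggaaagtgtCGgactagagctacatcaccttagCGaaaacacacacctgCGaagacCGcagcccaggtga
Aebp2, chr6:140622413-140622612, plus strand: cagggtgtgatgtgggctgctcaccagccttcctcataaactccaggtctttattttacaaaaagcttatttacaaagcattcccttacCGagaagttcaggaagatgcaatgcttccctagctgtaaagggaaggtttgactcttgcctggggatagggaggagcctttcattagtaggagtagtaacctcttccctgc

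The *Suz12* window held 31 CpG dinucleotides in 200 bases, at percentile 98.6 of the 32851 windows in the table. The *Ezh1* window held 7 and the *Aebp2* window 1, against a median of 4 over all windows. *Aebp2* had 2 further windows, with 13 and 2 CpG dinucleotides. Over the 13 windows of the 9 members, an E2F sequence (TTTCCCGC or TTTGGCGC, either strand) occurred in 2, those of *Suz12* and *Phf19*, and in 1.03% of all windows. The GC box GGGCGG, on either strand, occurred in 7 of the 13 windows and in 24.6% of all windows. *Aebp2* and *Jarid2* each gave 2 of these 7 windows, and the share over all windows was not matched for GC content. The TCF/LEF sequence ATCAAAG, on either strand, occurred in 0 of the 13 windows and in 2.64% of all windows, which says only that these letters were not in the windows searched.

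*Rnf146* itself, the gene delivered by the virus, was higher in all 4 Rnf146 libraries, on average by 2.64 ± 0.13 (SD, n = 4 pairs). Across all genes, 188 of 15039 (1.25%) were called, which means a Benjamini-Hochberg adjusted p no higher than 0.1 in a limma fit that blocks on the replicate number. Of the 9 PRC2 genes, 1 was among them, which was *Epop*, and it was lower. The lower direction alone held 0.432% of all genes.

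*Epop*, which encodes a subunit of the Polycomb-like form of PRC2 that also binds Elongin B and C and the deubiquitinase USP7, stood apart from the rest of the complex. Its values were 10.77, 10.87, 10.52 and 10.69 in the eGFP libraries and 10.18, 10.08, 10.43 and 10.26 in the Rnf146 libraries of pairs 1 to 4. Every Rnf146 library lay below every eGFP library, and pair 3 showed the smallest step. The pair differences of -0.59, -0.80, -0.10 and -0.43 averaged -0.48 ± 0.30 (SD, n = 4 pairs), with a 95% interval from limma of -0.70 to -0.26. Of the 15039 genes, 9 had a mean difference as low as this or lower, *Epop* included. The spread between the pairs was also wide, since 97.4% of genes had an SD no larger than that of *Epop*.

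For *Epop*, limma gave an adjusted p of 0.092 in the blocked fit and 0.012 in the unblocked one. The unblocked fit counts 6 residual degrees of freedom in place of 3, although the centred values hold 4 independent differences, so its p-values are too small, here and for *Aebp2* and the gene lists. The call did not hold without pair 1 (adjusted p = 0.134), without pair 2 (0.302) or without pair 4 (0.326), and without pair 3 the adjusted p was 0.027. Because every pair difference of *Epop* was below 0, the mean had to stay below 0 in each of these fits. It ran from -0.61 without pair 3 to -0.37 without pair 2.

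**Figure D1:**
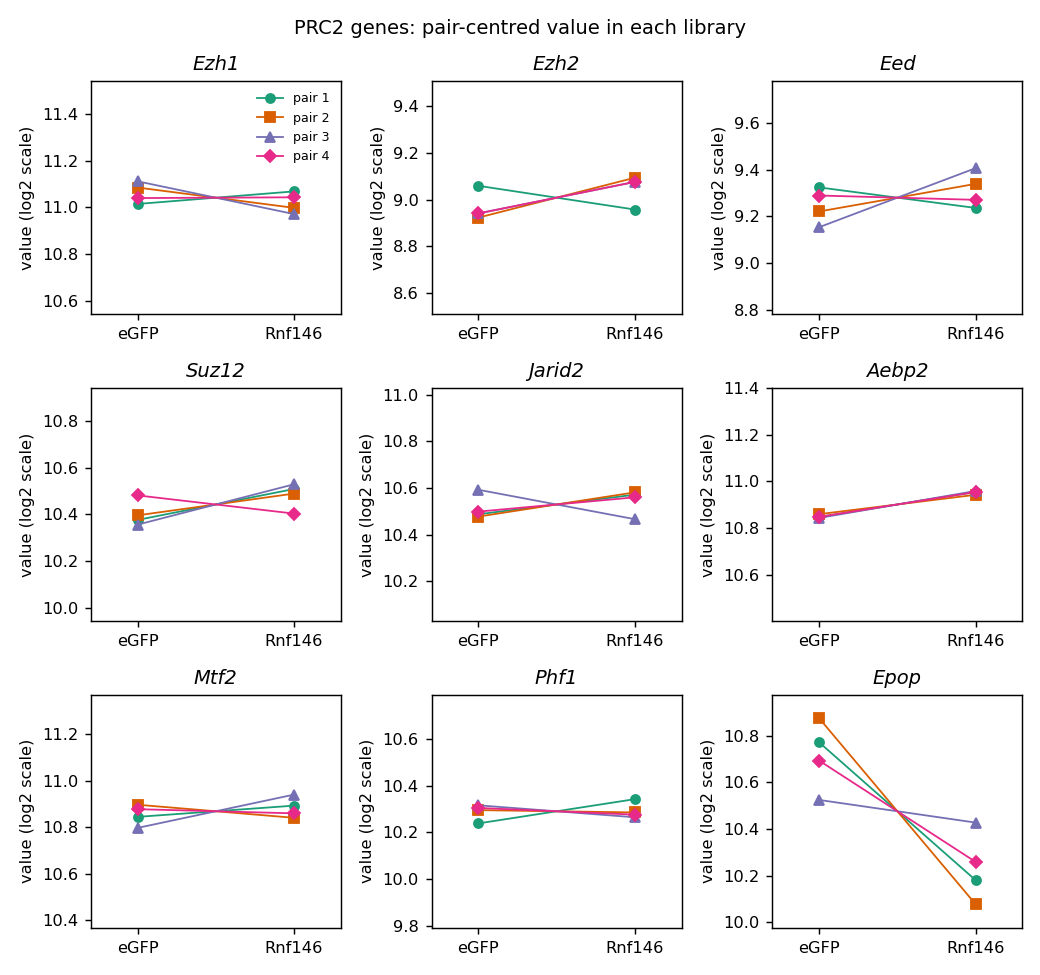
Pair-centred value (log2 scale) of the 9 PRC2 genes in each eGFP and Rnf146 library, with a line joining the 2 libraries of a pair; each vertical axis spans the same range around the mean of its gene. *Epop* falls in all 4 pairs, from 10.87 to 10.08 in pair 2, and *Aebp2* is higher by 0.08 to 0.12 in each. The other 7 genes rise in some pairs and fall in others. Because of the centring, the lines of every gene meet at its mean.

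The *Epop* gene lies on chromosome 11 (GRCm39, 97518215 to 97520528, minus strand; ENSMUSG00000043439), and the annotation places no other gene over it. Its canonical transcript consists of 1 exon of 2314 bases. Among the 14590 genes with an annotated canonical transcript, 6.13% have a single exon, and their median difference was 0.01. The transcript is unusually rich in G and C, at 66.9%, and 99.9% of genes have a GC content no higher. The 1458 genes in the top decile of GC content had a median difference of -0.10, -0.03, -0.04 and 0.00 in pairs 1 to 4, so GC content moved with the differences of pair 1 in particular. After correction of the differences for GC content and transcript length, the mean of *Epop* was -0.43 with an adjusted p of 0.125, above the threshold. *Phf1*, also in the top decile at 60.4% GC, had a mean difference of 0.00.

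**Figure D2:**
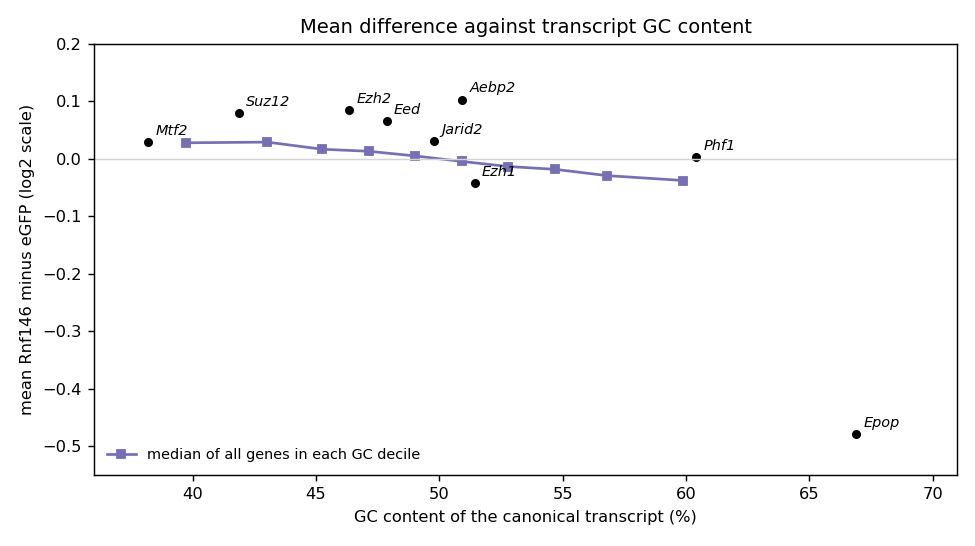
Mean of the 4 pair differences (Rnf146 minus eGFP, log2 scale) of each PRC2 gene against the GC content of its canonical transcript in percent; squares joined by a line give the median of all genes in each decile of GC content. The line falls from 0.03 to -0.04, and *Epop*, at 66.9% GC and -0.48, lies far below it.

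The PFC is rich in excitatory neurons, and their markers moved in the same direction as *Epop*. The mean of the 10 marker genes of cortical excitatory neurons differed by -0.22, -0.37, -0.05 and -0.20 in pairs 1 to 4. The mean level of these markers lay between 11.98 and 12.14 in the eGFP libraries and between 11.77 and 11.94 in the Rnf146 libraries. The pairs rank in the same order for *Epop* and for the marker mean, from pair 2 with the largest drop to pair 3 with the smallest. *Slc17a7*, the vesicular glutamate transporter, and *Neurod2*, a transcription factor of these neurons, were the 2 markers called, both lower, at -0.30 and -0.30. Relative to the marker mean of the same pair, *Epop* differed by -0.37, -0.43, -0.05 and -0.24. In bulk tissue, fewer cells of a type and less RNA per cell cannot be told apart, and the part of these neurons in the *Epop* difference was not tested.

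Over the whole table, the 5 genes whose 4 pair differences lay nearest to those of *Epop*, by root mean square distance over the 4 pairs, were *Npas4*, *Fmnl1*, *Ephb3*, *Cck* and *Fos*, at distances of 0.132 to 0.152. *Npas4* and *Fos* are immediate early genes that neurons switch on with activity, and *Cck* encodes the neuropeptide cholecystokinin. *Npas4* differed by -0.66, -0.76, -0.21 and -0.21 in the 4 pairs and *Fos* by -0.38, -0.85, -0.29 and -0.52. *Fos* was called, at a mean of -0.51 (adjusted p = 0.051, limma), and *Npas4* was not, at a mean of -0.46 (adjusted p = 0.104). With 4 pairs, this likeness describes these libraries only.

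**Figure D3:**
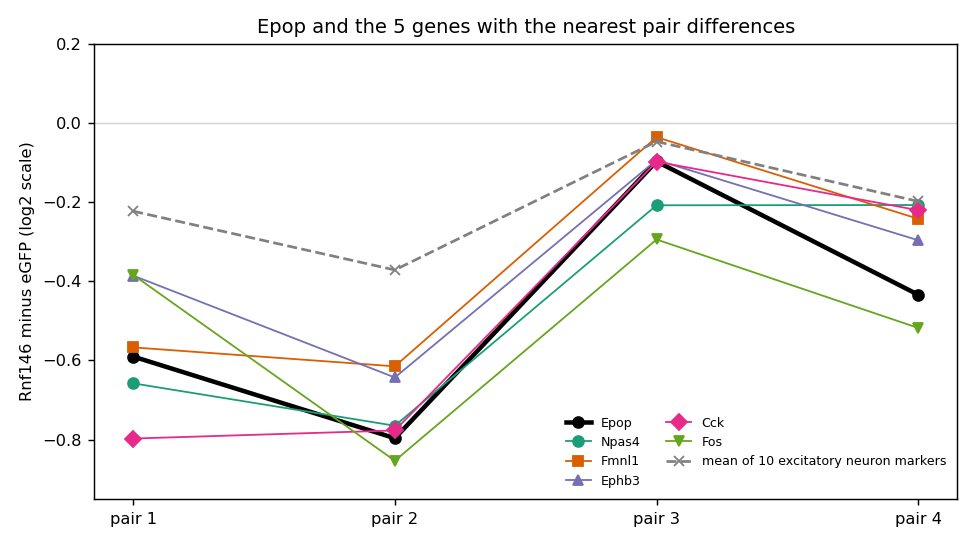
Difference between the Rnf146 and eGFP library of each pair (log2 scale) for *Epop*, for the 5 genes with the nearest differences, and for the mean of 10 excitatory neuron markers (dashed). All lines lie below 0, and all but that of *Cck*, which is lowest in pair 1, are lowest in pair 2; *Epop* runs from -0.80 in pair 2 to -0.10 in pair 3.

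The core subunits stayed within the spread between pairs or close to it. *Ezh1*, *Ezh2*, *Eed* and *Suz12* had mean differences between -0.04 and 0.08, none was called, and the 2 groups of libraries overlapped for all 4 genes. Averaged over these 4 genes, the pairs stood at -0.00, 0.07, 0.11 and 0.01 and averaged 0.05 ± 0.05 (SD, n = 4 pairs).

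*Ezh1* (chromosome 11, 101081934 to 101117315, minus strand) encodes the catalytic subunit of non-dividing cells. Its values were 11.02, 11.09, 11.11 and 11.04 in the eGFP libraries and 11.07, 11.00, 10.97 and 11.04 in the Rnf146 libraries. It was higher in 2 pairs and lower in 2, with a mean difference of -0.04 ± 0.09 and a 95% interval of -0.16 to 0.07. *Ezh2* (chromosome 6, 47507073 to 47572331, minus strand) encodes the more active catalytic subunit. Its values were 9.06, 8.92, 8.94 and 8.94 in the eGFP libraries and 8.96, 9.09, 9.08 and 9.08 in the Rnf146 libraries. Pair 1 went against the other three: the differences were -0.10, 0.17, 0.14 and 0.13, with a mean of 0.08 ± 0.13, a 95% interval of -0.05 to 0.21 and an adjusted p of 0.591. Subtracting *Ezh1* from *Ezh2* left -0.16, 0.26, 0.28 and 0.13, which averaged 0.13 ± 0.20 (SD, n = 4 pairs), smaller than its spread.

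The list means of oligodendrocytes, their precursors and striatal neurons were, like *Ezh2*, below 0 in pair 1 and above 0 in the other pairs. The 9 striatal markers averaged -0.11 in pair 1 and 1.36, 0.74 and 0.30 in pairs 2 to 4. Of them, *Drd1*, *Drd2* and *Tac1* were above 0 in pair 1 too, at 0.09, 0.15 and 0.03, and the rest were below 0 there. The 8 oligodendrocyte markers averaged -0.13 in pair 1 and 0.47, 0.90 and 0.55 in pairs 2 to 4, and the 5 markers of oligodendrocyte precursors averaged -0.05 in pair 1 and 0.11, 0.13 and 0.11 in the others. Among the single precursor genes *Olig1* had this split, and *Pdgfra*, *Cspg4*, *Gpr17* and *C1ql1* did not. The astrocyte and microglial list means did not have it either, at -0.04 and -0.19 in pair 1 and -0.06 and -0.28 in pair 2. The mean level of the oligodendrocyte markers overlapped between the groups, from 11.93 to 12.45 in the eGFP libraries and from 12.32 to 12.83 in the Rnf146 libraries. All 8 and 4 of the 5 had a mean above 0, and 0 of these 13 genes were called. Of the 4 markers of dividing cells, *Mki67* and *Top2a* were in the table, at mean differences of 0.14 and 0.29, neither called. In pairs 1 to 4 *Mki67* differed by 0.10, 0.21, 0.36 and -0.12 and *Top2a* by 0.16, 0.19, 0.69 and 0.12. Neither had the split of *Ezh2*. The part of these cells in the values of *Ezh2* was not tested.

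*Eed* (chromosome 7, 89603862 to 89630217, minus strand) had values of 9.32, 9.22, 9.15 and 9.29 in the eGFP libraries and 9.24, 9.34, 9.41 and 9.27 in the Rnf146 libraries. Its differences of -0.09, 0.12, 0.25 and -0.02 averaged 0.07 ± 0.15, with a 95% interval of -0.08 to 0.21. *Suz12* (chromosome 11, 79883891 to 79925421, plus strand) had 10.38, 10.40, 10.36 and 10.48 in the eGFP libraries and 10.51, 10.49, 10.53 and 10.40 in the Rnf146 libraries. It was higher in 3 of the 4 pairs, by 0.13, 0.09 and 0.17, and stood at -0.08 in pair 4, with a mean of 0.08 ± 0.11 and a 95% interval of -0.04 to 0.20. For all 4 core genes the interval held 0.

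The form of PRC2 with JARID2 and AEBP2 showed a small difference of steady size in one of its subunits. *Aebp2* (chromosome 6, 140546644 to 140713010, plus strand) encodes a zinc finger protein that stabilizes the complex on chromatin. Its values were 10.85, 10.86, 10.84 and 10.85 in the eGFP libraries and 10.95, 10.94, 10.96 and 10.95 in the Rnf146 libraries, without overlap. The differences of 0.11, 0.08, 0.12 and 0.11 averaged 0.10 ± 0.01 (SD, n = 4 pairs). This SD was among the smallest in the table, with 0.359% of genes at or below it. *Aebp2* was not called, with a 95% interval from limma of 0.01 to 0.20, which pools the spread over genes, while its adjusted p was 0.371 in the blocked fit and 0.0096 in the unblocked one.

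*Jarid2* (chromosome 13, 44882950 to 45075119, plus strand) encodes the subunit through which this form binds nucleosomes that already carry ubiquitin on histone H2A. It had values of 10.49, 10.48, 10.59 and 10.50 in the eGFP libraries and 10.57, 10.58, 10.47 and 10.56 in the Rnf146 libraries. Here pair 3 went against the others, with differences of 0.08, 0.10, -0.13 and 0.06 and a mean of 0.03 ± 0.11. *Epop* and *Aebp2* were the 2 of the 9 genes whose groups did not overlap, a pattern that 20.6% of all genes showed (10.2% with all 4 pairs lower and 10.4% with all 4 higher).

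Besides *Epop*, the Polycomb-like form was represented by *Mtf2* and *Phf1*, whose proteins bind unmethylated CpG-rich DNA and methylated lysine 36 of histone H3. *Mtf2* (chromosome 5, 108213540 to 108256877, plus strand) ranged from 10.80 to 10.90 in the eGFP libraries and from 10.84 to 10.94 in the Rnf146 libraries. Its differences of 0.05, -0.06, 0.14 and -0.02 averaged 0.03 ± 0.09. *Phf1* (chromosome 17, 27152002 to 27156892, plus strand) ranged from 10.24 to 10.32 in the eGFP libraries and from 10.26 to 10.34 in the Rnf146 libraries. Its differences of 0.10, -0.01, -0.05 and -0.03 averaged 0.00 ± 0.07. Neither mean was larger than the spread between its pairs, and the difference between these genes and *Epop* was not tested.

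**Figure D4:**
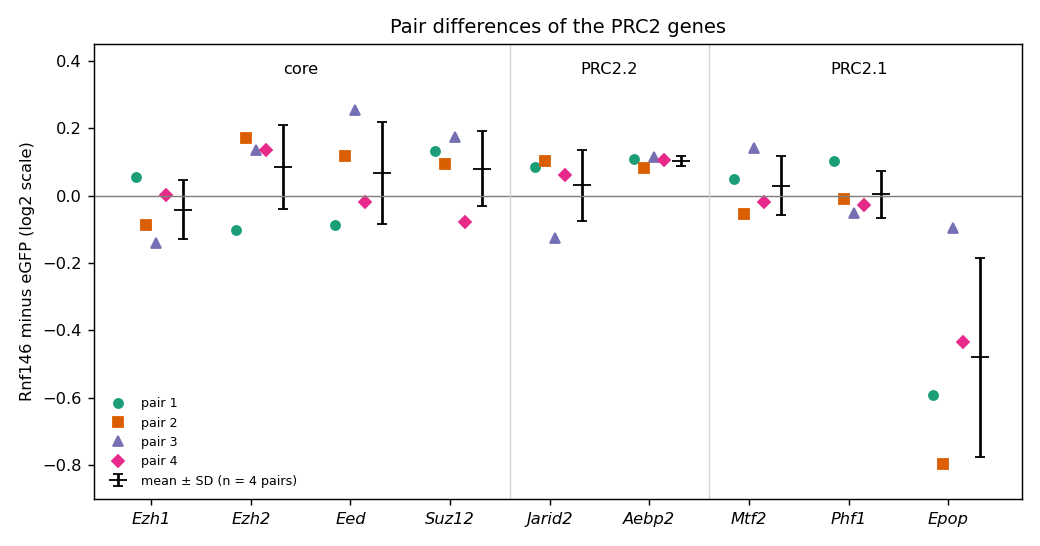
Difference between the Rnf146 and eGFP library of each pair (log2 scale) for the 9 PRC2 genes, grouped into core subunits and the 2 accessory forms; the bars give the mean ± SD of the 4 pairs. *Epop*, at -0.48 ± 0.30, is the one gene far from 0, and the 4 points of *Aebp2* lie close together between 0.08 and 0.12.

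Taking the 8 genes other than *Epop* together, 7 had a mean difference above 0, where 50.5% of all genes did. Their mean differences ran from -0.04 to 0.10, with a median of 0.05 against 0.00 over all genes, and 0 of the 8 were called. The average over these 8 genes was 0.04, 0.05, 0.06 and 0.02 in the 4 pairs, and with *Epop*, over all 9 measured members, it was -0.03, -0.04, 0.04 and -0.03. At an unadjusted p below 0.05, 1 of the 8 (*Aebp2*) passed in the fit with the block, as did 12.4% of all genes. The SD between pairs of the 9 genes had a median of 0.11, against 0.10 over all genes. *Epop* was set apart here with its value known, and with it 77.8% of the members had a mean above 0. *Ezh2*, *Eed*, *Suz12*, *Mtf2* and *Jarid2* lie in deciles 1 to 5 of GC content. There the median over all genes was above 0, at 0.01 to 0.03. *Ezh1*, *Aebp2* and *Phf1* lie in deciles where it was below 0.

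The values are not per transcript length, so levels of different genes cannot be compared as abundances. As a description of where each gene lies on the scale of the table, against all genes in the table the mean value of *Ezh2* lay at percentile 25.7 and that of *Eed* at 33.3, and those of the other 7 members between 61.2 (*Phf1*) and 77.5 (*Ezh1*). Toward the low end, where *Ezh2* and *Eed* lie, a log2 scale of this kind may compress changes. The annotation (GENCODE vM39, GRCm39) places a gene with a row in the table on the opposite strand over part of *Ezh1* (*Cntnap1*), *Ezh2* (*Cul1*), *Eed* (*E230029C05Rik*), *Suz12* (*Crlf3*), *Jarid2* (*Dtnbp1*), *Mtf2* (*Tmed5*) and *Phf1* (*Cuta*). The library kit keeps the strand, and transcripts were quantified singly.

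The other genes of the Polycomb and Trithorax systems were described from 6 lists. Together they hold 59 measured genes, of which 0 were called with the block in limma, 5 had an unadjusted p below 0.05 (8.47%, against 12.4% of all genes) and 10 were called without the block, where 21.5% of all genes were. Their mean differences ran from -0.18 to 0.11, with a median of -0.01.

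Of the 5 other PRC2-associated genes listed, 4 were measured, and all 4 had a mean above 0, with a median of 0.08. *Rbbp4* and *Rbbp7*, the histone chaperones of the core, had mean differences of 0.09 ± 0.14 and 0.01 ± 0.07. *Lcorl*, a relative of *Lcor* that encodes an alternative partner of the Polycomb-like form, was higher in all 4 pairs, by 0.14, 0.15, 0.08 and 0.08, with an adjusted p of 0.355. The partners of EPOP showed no common direction. *Elob* and *Eloc* had mean differences of -0.05 ± 0.03 and 0.01 ± 0.07, *Eloa* of -0.00 ± 0.04, and *Usp7* of 0.10 ± 0.04, with an adjusted p of 0.397 for *Usp7*.

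PRC1, the Polycomb complex that attaches ubiquitin to histone H2A, was represented by 24 genes, with a median difference of -0.02 and a range from -0.10 (*Bcor*) to 0.11 (*Phc1*). The PR-DUB complex, which removes that ubiquitin, was represented by 11 genes with a median of -0.00, from -0.08 (*Foxk1*) to 0.08 (*Ogt*). The 2 demethylases that remove the PRC2 mark, *Kdm6a* and *Kdm6b*, had mean differences of -0.01 ± 0.10 and -0.18 ± 0.14. *Kdm6b* differed by -0.00, -0.31, -0.15 and -0.26 in the pairs and had an adjusted p of 0.274. The KMT2 complexes, which methylate lysine 4 of histone H3 and work against Polycomb, had a median of -0.05 over 14 genes. *Setd1a* was lower in all 4 pairs, by -0.25, -0.12, -0.10 and -0.15, with an adjusted p of 0.219, and *Kmt2c* was higher in all 4, with a mean of 0.10 ± 0.05.

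**Figure D5:**
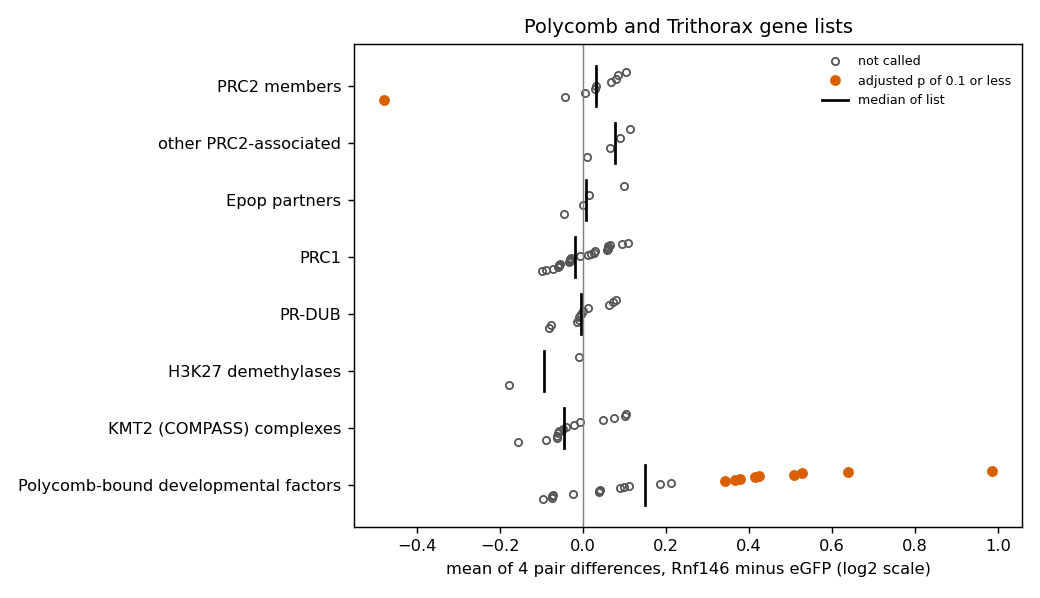
Mean of the 4 pair differences (Rnf146 minus eGFP, log2 scale) of each gene in 8 lists; filled points mark the genes called in the blocked limma fit, and the vertical bars give the median of each list. *Epop* at -0.48 and 9 developmental factors between 0.34 and 0.99 are the filled points.

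Genes that PRC2 is known to hold silent in stem cells and neurons were looked at through a list of 77 developmental genes, most of them transcription factors. Of these, 22 were in the table, and 0 of the 11 *Hox* genes listed were. Among the 22, 9 were called with the block in limma, all higher (all genes, higher: 0.818%), and the median difference was 0.15. They were the 5 *Zic* genes of the table, *Six3*, *Sox1*, *Isl1* and *Dlx1*, with mean differences between 0.34 and 0.99. *Zic1*, a factor of septal and other midline neurons, differed by 0.94, 1.44, 0.52 and 1.04 in the pairs. *Six3* and *Dlx1*, factors of ventral forebrain and GABAergic neurons, rose by 0.64 ± 0.22 (adjusted p = 0.016) and 0.37 ± 0.11 (adjusted p = 0.029).

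The other 13 genes of the list had mean differences between -0.10 and 0.21 and adjusted p-values of 0.208 or more. They include *Pax6*, *Gata2*, *Nkx2-2*, *Foxc1*, *Tbx3* and *Bmp4*, at -0.07 to 0.11. The extremes were *Lhx2*, at -0.10, and *Olig2*, at 0.21. *Dlx2*, *Dlx5* and *Bmp4* were higher in all 4 pairs, at 0.10, 0.19 and 0.09, and 0 genes of the list were lower in all 4. The list was written with the rise of *Zic* genes and *Isl1* in these libraries known. *Zic1*, *Zic2*, *Zic4* and *Isl1* are also on the list of septal and basal forebrain markers, and without these 4 genes, 5 of 18 were called and the median was 0.09. Without pair 4, 1 gene of the Polycomb, KMT2 and developmental lists was called, against 9 with all pairs, while the calls over the whole table went from 188 to 14 and the median of the developmental list was 0.15 in both fits.

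Markers of neighbouring regions and other cells are given beside these genes. Of 9 septal and basal forebrain markers, 6 were measured and all 6 were called and higher, but 4 of them are the *Zic* genes and *Isl1* named above. The other 2 were *Slc5a7*, the choline transporter, at 0.51 (adjusted p = 0.065), and *Ngfr*, at 0.39 (adjusted p = 0.070). The mean level of the 6 was at most 9.21 in the eGFP libraries and between 9.51 and 9.72 in the Rnf146 libraries, while *Chat* and *Lhx8*, also markers of cholinergic neurons of this region, had no row. All 9 striatal markers had a mean above 0, with a median of 0.54, but their average was -0.11 in pair 1 and 1.36 in pair 2, and 0 were called. Of the 6 inhibitory neuron markers, *Gad1*, *Gad2* and *Slc32a1* were called and higher, at 0.45 to 0.64, while *Vip* was at -0.23 and below 0 in all 4 pairs, *Sst* at -0.06 and *Pvalb* at -0.03, none of these 3 called. Astrocyte, microglial and endothelial markers had medians of -0.02, -0.15 and 0.03 with 0 of 17 called, and *Foxj1* of the 2 measured ependymal markers was called, at 0.32. The part of these cells and regions in the rise of the developmental factors was not tested. With the mean of the striatal and septal markers as a covariate in limma, 3 of 15039 genes were called. In that fit *Epop* was at -0.34 with an adjusted p of 0.888, and *Aebp2* was at 0.12 with an adjusted p of 0.911. The septal part of this covariate did not overlap between the groups, so it shares variation with the group itself. The fit also has fewer residual degrees of freedom. Its lost calls therefore cannot tell the group apart from the markers.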

How the data were processed

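Adapter trimming by the authors used Cutadapt, and transcript abundance was estimated with Salmon 1.9.0 against GENCODE vM30 (GRCm39). The submitters' processing notes also list DESeq2. The deposited values are called normalized counts but are on a log2 scale, from 7.86 to 18.8 for 15039 genes. The normalization and transformation are not given in the sources used here, and the depth per library is unknown. For every gene the sum of the 2 values in a same-numbered pair was identical for the 4 pairs (largest spread 1.4e-13), so the values had been centred within pairs. The replicate numbers of the sample labels give the pairing; the centring makes paired deviations mirror each other by construction, so whether the numbers mark a shared source cannot be read from the values. Whether the 4 libraries of a group came from separate mice is not stated, so p-values measure the spread between these samples.

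Groups came from the sample labels. Differences were fitted over all genes with limma 3.58.1 in R 4.3.3 (group and replicate block, eBayes with trend) with Benjamini-Hochberg adjustment, and genes with an adjusted p no higher than 0.1 were called. The fit was tested on simulated data. Members and gene lists were chosen with earlier results of these data known. Named genes are the members, called genes of each list, the extremes of lists with fewer than 2 calls, and the 5 genes nearest to *Epop*. Other list genes were named after their values were seen. GC content, length and coordinates came from canonical transcripts of GENCODE vM39, found for 14590 genes (97%). Promoter windows came from the RefSeq table. Python 3.11.15 was used for annotation and figures. The alternatives were no replicate block, a filter on low values, median centring, quantile normalization, untrended and robust variances, array weights, a threshold of 0.05, the mean of striatal and septal markers as covariate, and each pair left out. Correcting for transcript GC content and length was added after seeing the data.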

Additional observations from a re-analysis of the deposited data

Results flagged for a closer look

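*Ezh2* was the one of the 9 PRC2 genes in which the gap of 1 pair passed the limit for an outlying value. Pair 1 stood at -0.102, while pairs 2 to 4 ran from 0.13 to 0.17, and the gap of pair 1 to its neighbour was 0.868 of the whole range, above Dixon's 95% critical value for 4 values. Without pair 1 the mean difference of *Ezh2* was 0.15, with an adjusted p of 0.259 from limma with the block. *Jarid2*, with pair 3 apart at -0.13, came close, at 0.814. Chance flags about 1 in 20 genes tested in this way, and 9 were tested.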

How the results depend on the processing

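Of the 9 PRC2 genes, 1 was called in the reported fit and under the filter on low values, median centring, quantile normalization, untrended variances and array weights. None, 0, was called with robust variances (adjusted p of *Epop* 0.118), at an adjusted p of 0.05, with the marker covariate or after the correction for GC content and length, which was chosen after seeing the data. Without the replicate block, 2 were called (*Epop* and *Aebp2*), as were 3226 genes of the whole table and 22 of the other Polycomb, KMT2 and developmental lists, against 188 and 9 with the block. Over the whole table, array weights gave 355 genes, an adjusted p of 0.05 gave 80 and the marker covariate gave 3. Leaving out 1 pair gave between 14 (without pair 4) and 421 (without pair 1) genes, 0 to 1 PRC2 genes, and 1 to 9 genes of the other lists. *Epop* was lower and *Aebp2* higher under all 13 alternatives, but for these genes many of the alternatives could not change the sign. The fit without the block, the filter, and the untrended and robust variances leave the mean as it is. Leaving out a pair cannot turn a mean whose pair differences all share a sign. With the marker covariate, *Ezh2* stood at -0.05, *Eed* at -0.05 and *Ezh1* at 0.04, each on the other side of 0 from the reported value, and *Mtf2* and *Phf1*, close to 0, kept their sign in 11 of the 13. The cause of these changes was not tested. The depth is unknown and limits low genes such as *Ezh2* and *Eed* to an unknown degree.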
